A study of Mus musculus with 61 samples.

Results

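Drc1 and Adam28 are the subject here, 2 of 24421 counted mouse genes. They were chosen from measured values, as spleen genes whose levels in mice with the STAT5B Y665F substitution did not overlap those of Y665H or unmutated wild-type (WT) mice. Drc1 was picked on the high side in Y665F and Adam28 on the low side. All spleen values of both genes, including whether they passed a threshold, are therefore given as a description and not as a test. Tests of both genes are kept for splenic T cells and CD4+ T cells.

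RNA-seq was made in 61 libraries of mice aged 2 months, to learn how substitutions of a tyrosine of STAT5B, Y665F and Y665H, change the transcription factor's output in vivo and in cultured T cells. Unstimulated spleens of mice labelled C57BL/6 gave 4 WT, 5 Y665H and 7 Y665F libraries. The mutants were homozygous knock-ins made in C57BL/6N zygotes, by base editing for Y665H and by Cas9 with a donor oligonucleotide for Y665F. Splenic T cells, isolated by negative selection, gave 4 libraries per genotype after 1 day of culture with both IL-2 and IL-7, plus 3 without cytokine from Y665F mice alone, for which no culture is stated. The paper mentions RNA-seq of T cells taken right at isolation with no interleukin added, in a passage comparing Y665F with Y665H splenocytes. Naive CD4+ T cells of pooled lymph nodes and spleens were activated, transduced with 1 of 5 retroviruses and cultured for 2 days with IL-2. Cells sorted for GFP were sequenced, giving 3 libraries per vector and background. The vectors were empty or carried STAT5B, N642H (an activating leukemia mutation), Y665H or Y665F. In the null background a Cd4-Cre transgene deleted floxed Stat5a and Stat5b, so the deletion was aimed at CD4 and CD8 T cells alike and not at other cells. The labels call the unstimulated material splenocytes in titles and spleen in the tissue entry, and it holds all splenic cell types.

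STAT5A and STAT5B are transcription factors that IL-2 and IL-7 receptors activate through Janus kinases in lymphocytes, and Cish, Socs2 and Il2ra are well-known targets. Drc1 encodes a core subunit of the dynein regulatory complex (nexin link), the structure that ties neighbouring microtubule doublets together and tunes dynein arms in motile cilia and flagella. Adam28 encodes a membrane-anchored metalloproteinase of the ADAM (a disintegrin and metalloproteinase) family that was first described in lymphocytes.

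The guide and the donor that made the Y665F allele are shown because they are listed as the tools behind the genotype on which both genes part. The guide target, chr11:100787287-100787309 on the plus strand of GRCm38, lies in exon 16 of 19 of Stat5b with its PAM in capitals, and the same guide is listed for Y665H. The donor covers chr11:100787232-100787364 in the same exon, written on the minus (coding) strand with the edited codon in capitals. Against the Stat5b transcript it carries A73T and C74T, counted from 1 at the 5′ end of the donor with the transcript's base first, and that codon fills bases 72 to 74. The authors' methods also describe a silent C to G substitution against the PAM, which the listed donor lacks, and the sources used here do not settle which version the mice carry.
Guide target: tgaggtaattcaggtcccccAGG
Y665F donor: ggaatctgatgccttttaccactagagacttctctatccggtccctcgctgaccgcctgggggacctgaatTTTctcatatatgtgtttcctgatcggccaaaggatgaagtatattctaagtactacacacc

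Levels are given as CPM, read counts scaled to library size with TMM factors taken over all 61 libraries. Spleen libraries held 24203179 to 43330536 reads on genes, T-cell libraries 2017012 to 27394249, null CD4 libraries 19735230 to 48757430 and WT CD4 libraries 18825994 to 49850689. The shallowest were Y665H T cells, where replicates 1, 2 and 4 had 3310342, 2017012 and 5327354 reads. A count of 3 reads, taken as the floor, equals 1.36 CPM in Y665H T-cell replicate 2, and floors cover counting error only.

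Some libraries stood apart from their group in genes other than the members. Y665H spleen replicate 1 had a summed level of 12 erythroid genes of 1154 CPM, against 4853 to 6728 CPM in the other 4 Y665H spleens. Y665H spleen replicate 2 had 58.3 CPM over 8 pancreas genes, Cela1 on top, where the other 15 spleens had 4.18 to 19.4 CPM. Among splenic T cells, Y665F replicates 3 and 4 with cytokines had summed levels of 10 B-cell genes of 760 and 217 CPM, where the other 13 libraries had at most 117 CPM. Replicate 3 also had 1382 CPM of erythroid genes, against at most 294 CPM in the other 14. The members' fold changes that involve these libraries are given with and without them, while list counts and sums include them. Leaving out Y665F replicates 3 and 4 together was chosen after the data were seen, the members' values included.

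Stat5a and Stat5b levels matched the sample titles. Stat5a averaged 3.56 to 8.23 CPM over the null CD4 groups and 145 to 174 CPM over the WT CD4 groups. Stat5b averaged 6.496 CPM in null cells with the empty vector and 236 to 344 CPM with the constructs. In WT cells it averaged 220 CPM with the empty vector and 456 to 540 CPM with constructs, so both backgrounds carried more Stat5b transcript with a construct. Spleen Stat5b was 89.7 CPM in WT (78.0 to 99.4), 92.1 in Y665H (84.2 to 106) and 106 in Y665F (96.1 to 120). Stat5b transcript was thus present in both knock-ins, and its level per cell was not measured.

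Drc1 (ENSMUSG00000073102.7) lies at chr5:30281388-30366695 on the plus strand of GRCm38. Its level in the 4 WT spleens was 0.906, 0.414, 0.600 and 0.842 CPM, from 13 to 33 reads. In the 5 Y665H spleens it was 0.502, 0.220, 0.463, 0.229 and 0.428 CPM, from 9 to 18 reads. In the 7 Y665F spleens the lowest level was 7.28, the median 8.998 and the highest 9.36 CPM, from 214 to 404 reads. Every Y665F spleen was thus far above every other spleen, and the nearest values across the gap were 7.28 CPM in Y665F and 0.906 CPM in WT. Means were 0.691 ± 0.227 CPM (SD, n = 4) in WT, 0.368 ± 0.134 (n = 5) in Y665H and 8.65 ± 0.753 (n = 7) in Y665F. As a description, Drc1 was 23.7-fold higher in Y665F than in Y665H (log2 fold change 4.57, SE 0.20) and 12.7-fold higher than in WT (3.67, SE 0.21). The first of these was 4.69 without Y665H replicate 1 and 4.40 without replicate 2.

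Adam28 (ENSMUSG00000014725.16) lies at chr14:68606027-68655842 on the minus strand. Its level in the WT spleens was 4.66, 3.09, 2.78 and 2.94 CPM, from 97 to 139 reads. In Y665H it was 5.86, 4.99, 4.55, 5.67 and 5.54 CPM, from 167 to 227 reads. In Y665F the lowest level was 0.384, the median 0.971 and the highest 1.34 CPM, from 11 to 42 reads. All 7 Y665F spleens sat below all others, the nearest values being 1.34 CPM in Y665F and 2.78 CPM in WT. Means were 3.37 ± 0.873 CPM (n = 4) in WT, 5.32 ± 0.542 (n = 5) in Y665H and 0.911 ± 0.390 (n = 7) in Y665F. The log2 fold changes, again a description, were -2.55 (SE 0.23) against Y665H, -2.54 without its replicate 1 and -2.59 without its replicate 2, and -1.86 (SE 0.24) against WT. In bulk libraries such as these, fewer cells of a type and less RNA per cell cannot be told apart.

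**Figure D1:**
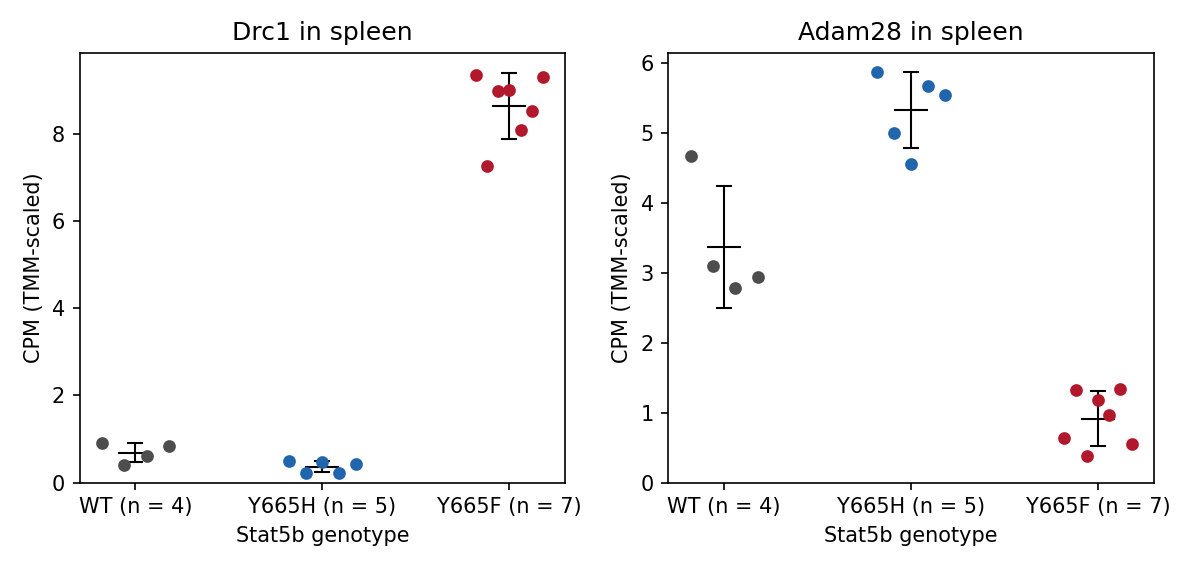
Drc1 and Adam28 levels (CPM) in each unstimulated spleen library of WT (4), Y665H (5) and Y665F (7) mice, with points for libraries and bars for the mean ± SD. Y665F spleens reach 7.28 to 9.36 CPM for Drc1 and 0.384 to 1.34 CPM for Adam28, outside the range of the other 9 libraries for both genes.

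Called genes are those with a Benjamini-Hochberg adjusted p under 0.05 in edgeR's quasi-likelihood test and a size of the log2 fold change above 1. In the spleen both members passed in Y665F against Y665H, where 5.28% of 19418 tested genes were called, and in Y665F against WT, where 1.2% were, and nothing is read from those counts because the same contrasts chose the genes. In Y665H against WT 4.37% of genes were called, and the members' values there are a description too, since its libraries served the choice. Neither passed the threshold, and without WT replicate 2, Y665H replicate 1 or Y665H replicate 3 Drc1 did (-1.05, -1.01 and -1.01). Drc1 had a log2 fold change of -0.90 (SE 0.26), with 2 of 5 Y665H spleens below every WT spleen and 3 of 5 within the WT range. It was -0.74 without Y665H replicate 2. Adam28 had 0.69 (SE 0.24), with 4 of 5 Y665H spleens above every WT spleen, and 0.69 and 0.73 without Y665H replicates 1 and 2 in turn.

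The spleens also differed in their cell-type markers. The summed level of 12 T-cell genes was 633 CPM in WT (591 to 685), 446 in Y665H (397.7 to 581.6) and 909 in Y665F (746 to 1054). Of these 12 genes, 6 were called higher in Y665F than in Y665H, with a list median log2 fold change of 0.98 against -0.01 for all genes, and 0 of 12 in Y665F against WT (median 0.66) or Y665H against WT (-0.50). Cd3e had a log2 fold change of 1.44 in Y665F against Y665H and Cd3d 1.11. Relative to the summed T-cell list, Drc1's difference in mean log2 level was 3.60 for Y665F against Y665H, 3.19 against WT and -0.41 for Y665H against WT, with 7 of 7 Y665F spleens above all others. In place of CPM, Drc1 per 1000 CPM of the T-cell list averaged 1.10 ± 0.379 in WT spleens, 0.831 ± 0.295 in Y665H and 9.64 ± 1.34 in Y665F. The part of T-cell content in the Drc1 levels was not tested.

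B-cell genes were measured beside Adam28. The 10 B-cell genes, all with reads in every spleen and Cr2 the most abundant, summed to 4156 CPM in WT (3834 to 4330), 3300 in Y665H (2944 to 4157) and 3208 in Y665F (2831 to 3646). By edgeR, 0 of 10 were called in any of the 3 spleen contrasts, with medians of 0.09, -0.17 and -0.27 for Y665F against Y665H, Y665F against WT and Y665H against WT. Adam28 relative to this list differed by -2.64, -1.61 and 1.03 in the same order, with 7 of 7 Y665F spleens below all others and 5 of 5 Y665H spleens above all WT spleens. Per 1000 CPM of B-cell genes, Adam28 averaged 0.809 ± 0.198 CPM in WT, 1.63 ± 0.168 in Y665H and 0.286 ± 0.129 in Y665F. The part of B-cell content in the Adam28 levels was not tested.

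Other cell-type lists moved with genotype as well, and their part in the Drc1 and Adam28 levels was not tested. Both CD8 genes were called higher in Y665F than in Y665H (Cd8b1 1.75, Cd8a 1.39), as were 2 of 6 regulatory T-cell genes (Foxp3 1.23, Ctla4 1.17), 6 of 11 cytotoxic effector-memory genes (Klrg1 2.94, Gzmb 2.47) and 2 of 6 NK-cell genes (S1pr5 1.36). Against WT, Y665F had 1 regulatory gene (Foxp3 1.12) and 3 cytotoxic genes called higher (Klrg1 1.56) and 1 NK gene lower (Klri2 -1.09). In Y665H against WT, 2 cytotoxic genes (Gzma -1.64) and 4 NK genes (Klrb1c -1.34) were called lower. The T-cell, CD8, regulatory and cytotoxic lists thus had medians in the same sense as Drc1 in all 3 contrasts (cytotoxic 1.01, 0.60 and -0.62) and the NK list did not in Y665F against WT.

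Erythroid genes were higher in Y665H, and neutrophil genes were higher in both mutants than in WT. Of 9 erythroid genes tested, 8 were called lower in Y665F than in Y665H (Slc4a1 -2.04) and 7 higher in Y665H than in WT (Slc4a1 2.41), with summed levels of 1546 CPM in WT, 5062 in Y665H and 1419 in Y665F. Of 9 neutrophil genes, 8 were called higher in Y665H (Elane 2.26) and 5 in Y665F (Elane 1.97), both against WT. The part of these cells in the Drc1 and Adam28 levels was not tested. Single genes were called in the macrophage list (Cd163 -1.41 in Y665F against Y665H and -1.39 against WT, of 9 genes), the plasma-cell list (Tnfrsf17 1.06 in Y665H against WT, of 7), the stroma list (Col1a1 1.00 in Y665F against WT, of 8) and the pancreas list (Cela1 -1.16 in Y665F against Y665H, of 8, with 1 higher in Y665H against WT). The pancreas list had medians of -1.80 in Y665F against Y665H, 2.00 in Y665F against WT and 4.32 in Y665H against WT, the largest of any list, on summed means of 7.84 CPM in WT, 21.3 in Y665H (12.04 without replicate 2) and 8.25 in Y665F. The plasma-cell medians (-0.41, -0.09 and 0.43 for the same contrasts in turn) and the macrophage medians (-0.52, -0.31 and 0.07) had the sense of Adam28 in all 3 contrasts. The megakaryocyte list had 2 of 6 called in Y665F against WT (Gp9 1.04), and the dendritic-cell list had 0 of 7 in all 3 spleen contrasts by edgeR.

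Drc1 and Iqcd were the called genes of the dynein regulatory complex in spleens, Drc1 by the choice itself. Of 10 dynein regulatory complex genes tested in the spleen, Drc1 was the 1 called higher in Y665F against Y665H and against WT. Iqcd, another gene of the list, went the opposite way, at -1.14 in Y665F against Y665H (adjusted p 0.00132) and 1.53 in Y665H against WT (adjusted p 0.00187). Gas8, a core subunit like Drc1, averaged 4.39 CPM in WT, 4.84 in Y665H and 4.57 in Y665F spleens, and Ccdc65, its partner in the complex, 0.0948, 0.0724 and 0.0731 CPM. The list summed to 21.3 CPM in WT, 21.5 in Y665H and 28.5 in Y665F, with Ccdc39 the most abundant gene on average, Drc1 on top in 3 of 7 Y665F spleens, and at most 1 of 11 genes at 0 per spleen.

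Genes of motile cilia beyond that complex had summed levels of 8.33 CPM in WT, 7.46 in Y665H and 7.90 in Y665F spleens over 15 genes, with Dnah11 or Dnah9 on top in 15 of 16 libraries and up to 4 genes at 0. By edgeR 0 of 14 tested were called in each of the 3 spleen contrasts, with medians of -0.03, -0.14 and -0.07. Foxj1, the regulator of motile cilia, averaged 0.143, 0.236 and 0.287 CPM, and Mcidas, a regulator of multiciliated cells, 0.0328, 0.00998 and 0.0233 CPM with 0 reads in some spleens of each genotype.

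Within the ADAM family, Adam28 was low in Y665F spleens by the choice itself. Of the other 16 genes tested, 1 was called lower in Y665F against Y665H and 0 against WT by edgeR, with medians of 0.03 and -0.03. Y665H against WT had 0 of 17 called by edgeR. Adam10 was the most abundant member in all 3 genotypes, and the family summed to 886 CPM in WT, 906 in Y665H and 872 in Y665F. Adam19, which was chosen here for its T-cell call below, averaged 136, 121 and 159 CPM.

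STAT5 targets showed how far the spleens differed in STAT5-linked transcripts. Of 15 target genes, 5 were called higher and 1 lower in Y665F against Y665H (median 0.66), 1 higher against WT (Cish 1.81) and 1 higher in Y665H against WT (Bcl2l1 1.30). Cish averaged 3.36 CPM in WT, 4.15 in Y665H and 11.7 in Y665F spleens. Its log2 fold change in Y665F against Y665H was 1.49 (adjusted p 2.89e-06), with 1.32 for Socs2 (8.17e-08) and 1.64 for Il2ra (6.28e-06).

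Splenic T cells, cultured with IL-2 and IL-7, tested the genotype contrasts in libraries that the choice did not use. All 12 T-cell genes had reads in all 15 libraries, with sums of 1504 to 3595 CPM. Drc1 was far higher here than in whole spleen. Its level in the 4 WT libraries was 19.1, 38.3, 43.2 and 45.3 CPM (mean 36.5 ± 11.9, SD), against 0.691 CPM in WT spleens. The T-cell list averaged 3295 CPM in the same WT T cells and 633 in WT spleens, so Drc1 differed more between both materials than the list did. In Y665H it was 15.7, 17.3, 16.7 and 16.5 CPM (16.5 ± 0.650), from 58, 38, 257 and 96 reads. In Y665F it was 68.1, 52.0, 18.8 and 30.9 CPM (42.5 ± 21.9). Y665F and WT overlapped, while all 4 Y665H libraries lay below every WT and every Y665F library. That gap was narrow, from 17.3 CPM (38 reads) in Y665H to 18.8 CPM (63 reads) in Y665F and 19.1 CPM in WT. With so few reads, counting error could close it. The share of all genes that part in this way was not counted.

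Y665F and WT T cells overlapped in Drc1, and the T-cell list had a median of -0.74 in Y665F against WT, with 1 of 12 genes called. Drc1 had a log2 fold change of 0.19 (SE 0.35, edgeR adjusted p 0.781) in Y665F against WT, where 1.53% of 22313 genes were called (342, and 93 to 809 without any single library), and 0.69 (adjusted p 0.834) without Y665F replicates 3 and 4. Drc1 turned to -0.12 without Y665F replicate 1 alone. In Y665H against WT, with 0.0717% of genes called, it was -1.14 (SE 0.37, edgeR p 0.00537, adjusted p 0.364). All 4 Y665H libraries were below all 4 WT libraries, the nearest values being 17.3 and 19.1 CPM. DESeq2 put it at -1.05, with an adjusted p of 0.208. The number of genes called in Y665H against WT was 16 and ranged from 0 to 38 when single libraries were left out. The difference between the spleen and T-cell effects was not tested.

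In Y665F against Y665H, with 4.78% of genes called, Drc1 rose by 1.33 (SE 0.37, edgeR adjusted p 0.0340), higher in 4 of 4 libraries. The call was lost without Y665H replicate 1 (1.34, adjusted p 0.0725), 2 (1.35, 0.0614), 3 (1.34, 0.0663) or 4 (1.37, 0.0864), and without Y665F replicate 1 (1.05, 0.101) or 2 (1.22, 0.0752). With the replicate number as a block it was lost too (1.24, adjusted p 0.0714). Without Y665F replicates 3 and 4 together it was 1.83 with an adjusted p of 0.00626. Cish (1.95, adjusted p 0.00698), Socs2 (1.54, 0.00565) and Il2ra (2.03, 0.000551) were called in the same contrast, and in Y665H against WT they were at -1.35, -1.14 and -1.33 without a call. Of the 15 targets, 9 were called higher in Y665F against Y665H (median 1.59, against 0.13 for all genes), 2 against WT and 0 in Y665H against WT by edgeR.

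The largest T-cell difference in Drc1 lay between Y665F cells with and without IL-2 and IL-7. Without IL-2 and IL-7 the 3 Y665F libraries had 3.64, 8.05 and 1.85 CPM (4.51 ± 3.20), all below the 4 with cytokines. The log2 fold change with against without cytokine was 3.31 (SE 0.45, edgeR adjusted p 5.05e-05), in a contrast with 2.97% of genes called, and it stayed between 2.93 and 4.03 without any single library. It was 3.81 (adjusted p 3.72e-06) without Y665F replicates 3 and 4. Cish (2.80), Socs2 (1.74) and Il2ra (2.35) were called too, and 14 of 15 STAT5 targets rose (median 1.98, against -0.13 for all genes). The other genotypes had no libraries without cytokine, so their response was not measured. Time in culture may differ between these cells as well, and its part was not tested.

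Set against the T-cell list, Drc1 in Y665F spleens lay between untreated and cytokine-treated Y665F T cells. Per 1000 CPM of the list it averaged 10.9 ± 3.08 CPM in WT T cells with cytokines, 5.80 ± 0.656 in Y665H and 16.6 ± 4.35 in Y665F, and 2.24 ± 1.84 in Y665F T cells without cytokine. On this scale treated Y665F (12.5 to 21.9) and WT T cells (6.65 to 13.9) overlapped little, which was not tested. The Y665F spleens, at 9.64 ± 1.34 (7.68 to 11.9), lay above all 3 untreated Y665F T-cell libraries, whose highest value was 4.27, and below all 4 treated ones, whose lowest was 12.5. WT spleens, at 1.10, and Y665H spleens, at 0.831, lay below the T cells of their genotype. These ratios are a description of bulk libraries, and the share of Drc1 reads that came from T cells in the spleens was not tested.

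**Figure D2:**
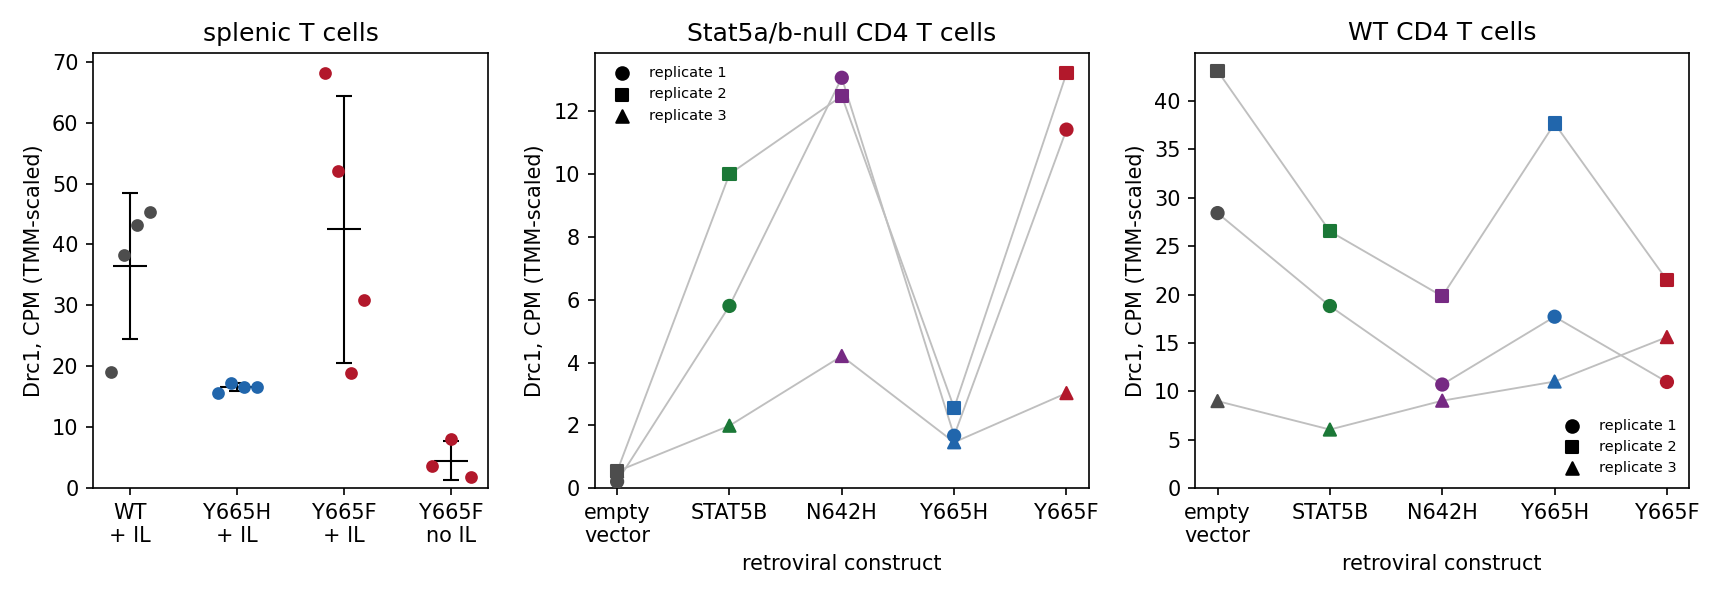
Drc1 level (CPM) per library in splenic T cells (left, with mean ± SD), Stat5a/b-null CD4+ T cells (middle) and WT CD4+ T cells (right), with grey lines joining libraries of the same replicate number and y axes that differ between panels. All 4 Y665H T-cell libraries lie below the 4 WT ones by a narrow gap (17.3 against 19.1 CPM). Null cells with the empty vector reach at most 0.540 CPM.

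Adam28 in splenic T cells was low and uneven. The WT libraries had 1.08, 0.335, 0.668 and 1.34 CPM, from 7 to 21 reads. Those of Y665H had 0, 1.82, 0.0648 and 0.689 CPM, from 0, 4, 1 and 4 reads, which is mostly near the floor. Those of Y665F had 1.14, 0.0673, 6.88 and 1.76 CPM with cytokines, from 24, 1, 23 and 25 reads, and 8.23, 3.13 and 1.12 CPM without, from 77, 40 and 17 reads. No genotype stood apart, and Y665F held both the highest and nearly the lowest values, unlike in the spleen. By edgeR the log2 fold changes were 1.25 (SE 0.86, adjusted p 0.407) in Y665F against WT, -0.93 (SE 1.08, 0.809) in Y665H against WT and 2.18 (SE 1.08, 0.250) in Y665F against Y665H. With against without cytokine it was -0.94 (SE 0.87, adjusted p 0.598). Without Y665F replicates 3 and 4 the first became -0.43, the third 0.51 and the last -2.62 (adjusted p 0.115). None was called.

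The high Adam28 values in T cells sat in libraries with a large share of read records on no gene. Shares over all 15 libraries ran from 63.9 to 85.7%, against 62.8 to 69.4% in the spleens. The 3 highest shares, 85.7% in untreated Y665F replicate 1, 84.0% in treated Y665F replicate 3 and 82.0% in untreated Y665F replicate 2, belonged to the 3 highest Adam28 levels in the same order. B-cell genes did not follow that order, with sums of 41.0, 760 and 62.2 CPM in these libraries. At lower shares Adam28 did not keep the order either. Untreated Y665F replicate 3 had 77.7% and 1.12 CPM, and treated Y665F replicate 2 had 72.8% and 0.0673 CPM. The most abundant B-cell gene was Ms4a1 in treated Y665F replicate 3 and Cd22 in replicate 4, and 1 of the 10 genes was at 0 in Y665H replicate 1. Of the 10, Pax5 was called higher in Y665F against WT (3.75), and 5 in Y665F against Y665H (Pax5 4.90, Ms4a1 4.25, Cd22 3.73). Per 1000 CPM of B-cell genes, Adam28 averaged 22.4 ± 19.1 in treated WT, 15.5 ± 19.1 in treated Y665H and 17.1 ± 22.0 in treated Y665F T cells. It averaged 92.2 ± 95.1 in untreated Y665F T cells. The spleen means were 0.809 in WT, 1.63 in Y665H and 0.286 in Y665F. The part of these shares and B-cell reads in the Adam28 levels was not tested.

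**Figure D3:**
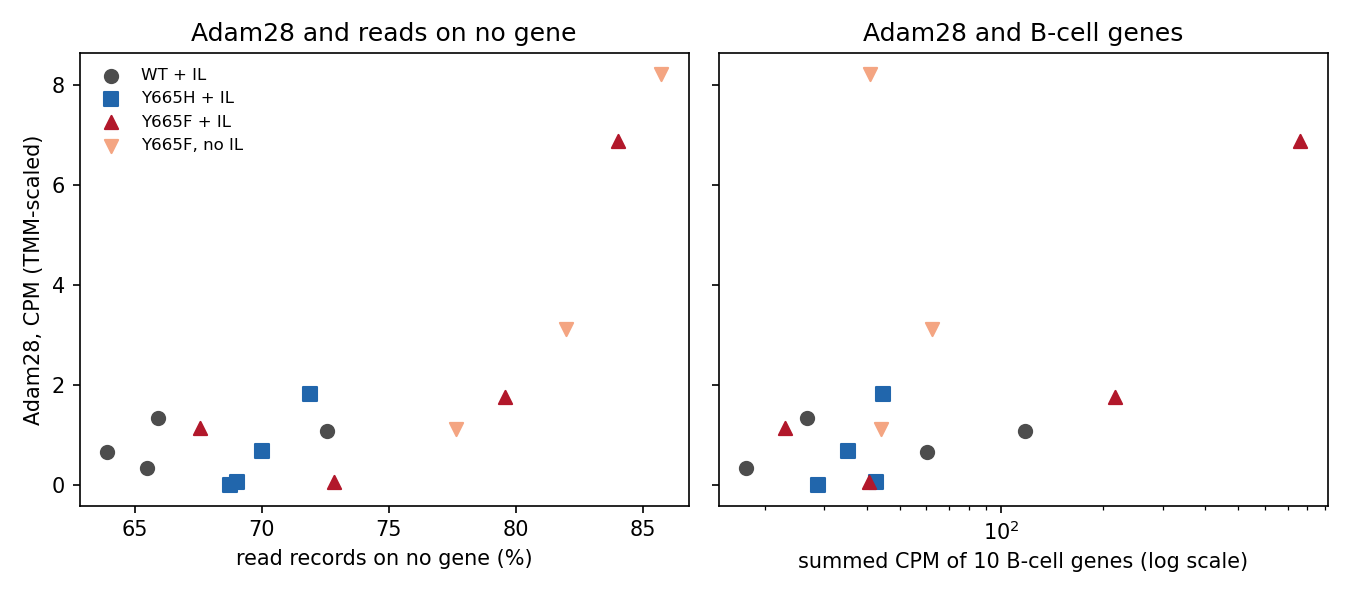
Adam28 level (CPM) in the 15 splenic T-cell libraries against the percentage of read records on no gene (left) and against the summed CPM of 10 B-cell genes on a log axis (right), with 1 point per library. The 3 highest Adam28 values, 3.13 to 8.23 CPM, belong to the libraries with the 3 highest percentages, 82.0 to 85.7%.

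Drc1 also moved with that share among treated Y665F T cells. Shares of 67.6, 72.8, 79.6 and 84.0% went with Drc1 levels of 68.1, 52.0, 30.9 and 18.8 CPM, and the WT library with the highest share, 72.6%, had the lowest WT level, 19.1 CPM. Untreated Y665F libraries did not follow it, with shares of 85.7, 82.0 and 77.7% beside Drc1 levels of 3.64, 8.05 and 1.85 CPM. The 4 Y665H libraries spanned 68.7 to 71.9% and 15.7 to 17.3 CPM. The part of this share in the Drc1 levels was not tested. The summed motile-cilia list averaged 14.3 CPM in WT, 9.003 in Y665H, 31.3 in treated Y665F (22.4 to 44.6) and 43.8 in untreated Y665F cells (27.0 to 69.2), and the 6 libraries with the highest shares had the 6 highest sums in the same order. Of its 15 genes, 4 were called higher in Y665F against Y665H (Rsph4a 2.53, Dnah11 2.09, Rsph1 1.93), 1 in Y665F against WT and 0 with against without cytokine by edgeR. Of 11 complex genes, Drc1 and Iqcg (1.32) were called higher and Iqcd (-2.68) lower in Y665F against Y665H, and with cytokine Drc1 was called alone.

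Other lists differed in the T cells as well, both those of T-cell subsets and those of other cell types. In Y665F against WT, 4 of 9 neutrophil genes (S100a8 4.02), 2 of 9 erythroid genes (Slc4a1 5.55) and 2 of 11 cytotoxic genes (Gzmb 1.71, Gzma 1.30) were called higher. In Y665F against Y665H it was 2 neutrophil and 2 erythroid genes, beside 3 of 5 NK genes (Klrb1c 2.05), 6 of 11 cytotoxic genes (Gzmb 4.71), 2 of 6 regulatory genes (Lrrc32 2.13), 2 of 7 plasma-cell genes (Jchain 3.02) and 1 of 7 dendritic-cell genes. The T-cell list had Trat1 called lower in both (-1.44 and -1.48). Summed neutrophil genes averaged 14.6 CPM in WT, 54.8 in Y665H, 139 in treated Y665F cells, with 312 in replicate 3 (mean 81.3 without it), and 125 in untreated ones. With against without cytokine, 5 of 11 cytotoxic genes (Gzmb 5.95), 3 of 5 NK genes (Ncr1 2.36), 3 of 6 regulatory genes (Tnfrsf18 2.38), 2 of 7 plasma-cell genes (Xbp1 1.62), Cd8a (1.10) and the erythroid list's Tfrc were called higher and Xcr1 of the dendritic-cell list lower (-1.26). In Y665H against WT, Gzmb, Gzma (-1.87) and Lrrc32 (-1.89) were called lower and S100a8 higher (2.71). The part of these transcripts in Drc1 and Adam28 was not tested. From the ADAM family, Adam23 was called higher in Y665F against Y665H (1.82) and Adam19 with against without cytokine (1.55).

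CD4+ T cells compared Drc1 with and without Stat5a and Stat5b, whose transcripts were low but not at 0 in the null background. With the empty vector, null cells had 0.214, 0.538 and 0.540 CPM, from 7, 17 and 14 reads, and WT cells 28.4, 43.1 and 9.01 CPM. Null cells thus had far less Drc1 than WT cells. The log2 fold change was -5.99 (SE 0.79, edgeR adjusted p 6.52e-06), lower in 3 of 3, in a contrast with 4.68% of 21975 genes called. Of 15 STAT5 targets 12 were called lower and 1 higher there, with a median of -2.57 against -0.12 for all genes and -4.15 for Cish. Cell-type lists moved there too. Called higher were 1 of 12 T-cell, 1 of 2 CD8 (median 1.35), 1 of 11 cytotoxic (median 1.01), 1 of 7 dendritic-cell and 2 of 8 stroma genes. Called lower were 1 of 7 plasma-cell and 1 of 9 neutrophil genes, while regulatory genes had 1 of 6 higher and 2 lower. The part of these lists in the Drc1 levels was not tested.

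Re-expressed STAT5B restored part of Drc1 in null cells. Levels with STAT5B were 5.81, 10.001 and 1.99 CPM. The others had 13.1, 12.5 and 4.21 CPM (N642H), 11.4, 13.2 and 3.03 (Y665F) and 1.67, 2.56 and 1.46 (Y665H). Each construct library was above every empty-vector library, and Y665H libraries were the lowest of the constructs as a group, with means of 5.93, 9.92, 9.22 and 1.90 CPM in the same order. Against the empty vector, Drc1 rose by 3.81 (SE 0.66, edgeR adjusted p 0.00656) with STAT5B, where 0.477% of 20113 genes were called, by 4.54 (SE 0.66, 0.000261) with N642H, where 2.88% were, and by 4.43 (SE 0.66, 0.000394) with Y665F, where 2.37% were. The STAT5B call was lost without empty-vector replicate 1 (3.48, adjusted p 0.0649). With Y665H, where 0.0249% of genes were called, the value was 2.14 (SE 0.68, p 0.00535, adjusted p 0.896). Replicate numbers paired the null libraries, and with the number as a block Drc1 rose with Y665H too, by 2.20 (adjusted p 0.0347), while the counts of all genes called went from 5 to 21 for Y665H and from 96 to 204 for STAT5B. Regulatory T-cell genes called higher against the empty vector were 1 of 6 with STAT5B and 2 each with N642H and Y665F. These constructs also each had 1 of 7 plasma-cell genes higher, and N642H had 1 of 9 neutrophil genes higher and 1 of 7 pancreas genes lower. Y665F against Y665H had 1 regulatory and 1 plasma-cell gene higher. The part of these lists in Drc1 was not tested.

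Between constructs, Y665F was above Y665H and not told from STAT5B. Drc1 was 2.29 higher in Y665F than in Y665H (SE 0.56, edgeR adjusted p 0.0165, higher in 3 of 3), with 1.8% of genes called. The call was lost without Y665H replicate 3 (2.11, adjusted p 0.0764) or Y665F replicate 1 (2.13, 0.0571) or 2 (1.96, 0.0818), and with the block the value was 2.15 (adjusted p 6.02e-05). Y665F against STAT5B gave 0.62 (SE 0.52, adjusted p 1), with 0.00994% of genes called, which is 2 genes, 0 to 35 without any single library and 39 with the block. Y665H against STAT5B gave -1.67 (SE 0.56, p 0.00766, adjusted p 0.263), with 0.149% called, and with the block -1.52 (adjusted p 0.00798), a call, while all called genes went from 30 to 116. Cish followed the same order, at 24.7 CPM with the empty vector, 73.0 with Y665H, 220 with STAT5B, 339 with Y665F and 357 with N642H. Of the 15 targets, STAT5B raised 9, N642H 11 (1 fell), Y665F 11 and Y665H 2, while 10 were higher in Y665F than in Y665H, and 7 were lower in Y665H than in STAT5B. Socs2 was called with Y665H (1.99, adjusted p 0.0185), Cish (1.56, 0.142) and Il2ra (0.56, 0.896) were not.

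In WT CD4+ T cells the constructs made no called difference in Drc1. Levels were 18.8, 26.5 and 6.07 CPM with STAT5B, 10.7, 19.8 and 9.05 with N642H, 17.7, 37.7 and 11.0 with Y665H and 11.0, 21.5 and 15.6 with Y665F. Ranges of all vectors overlapped, the empty vector's 9.01 to 43.1 CPM included, while within replicate numbers STAT5B was below the empty vector in 3 of 3. The log2 fold changes against the empty vector were -0.64 (STAT5B), -1.001 (N642H), -0.73 (Y665F) and -0.27 (Y665H), while Y665F against Y665H gave -0.45. Their SEs were 0.56 to 0.57 and their edgeR adjusted p-values 1, 0.599, 0.630, 1 and 0.870, with 0 of 5 at an unadjusted p under 0.05 for Drc1 in edgeR or DESeq2. Without any single library the values ran from -1.12 to -0.12 (STAT5B), -1.43 to -0.47 (N642H) and -1.14 to -0.19 (Y665F). They ran from -0.89 to 0.23 for Y665H and from -0.78 to 0.17 for Y665F against Y665H. With the replicate number as a block the values were -0.62, -0.86, -0.49, -0.23 and -0.25, none called, the lowest adjusted p being 0.0517 for N642H. The shares of all 20509 genes called in these contrasts were 0.00975, 0.985, 0.707, 0.00488 and 0.18%, and without any single library the counts ran from 70 to 350 for N642H and from 32 to 420 for Y665F. Of 15 STAT5 targets, 0, 1, 1, 0 and 0 were called in the same order.

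The Y665F response itself differed between backgrounds. Measured against each background's empty vector, it was larger in null than in WT cells by 5.21 on the log2 scale (SE 0.97, edgeR adjusted p 0.00559), with 0.419% of genes called in this interaction. It lay between 4.65 and 5.61 without any single library, with adjusted p-values up to 0.0418. The same term was 3.73 for Cish (adjusted p 3.14e-06), 4.93 for Socs2 (2.85e-08) and 2.48 for Il2ra (6.54e-05). Of 6 regulatory T-cell genes, 2 were called in the same term, and their part in Drc1 was not tested. The interaction was not tested for the other constructs. Of 11 complex genes, Drc1 was also the 1 called in the fall without STAT5 and in the interaction, and with Y665F in null cells another was called lower beside it. The motile-cilia list had 0 of 15 called with any construct in either background by edgeR and 1 lower in null against WT.

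**Figure D4:**
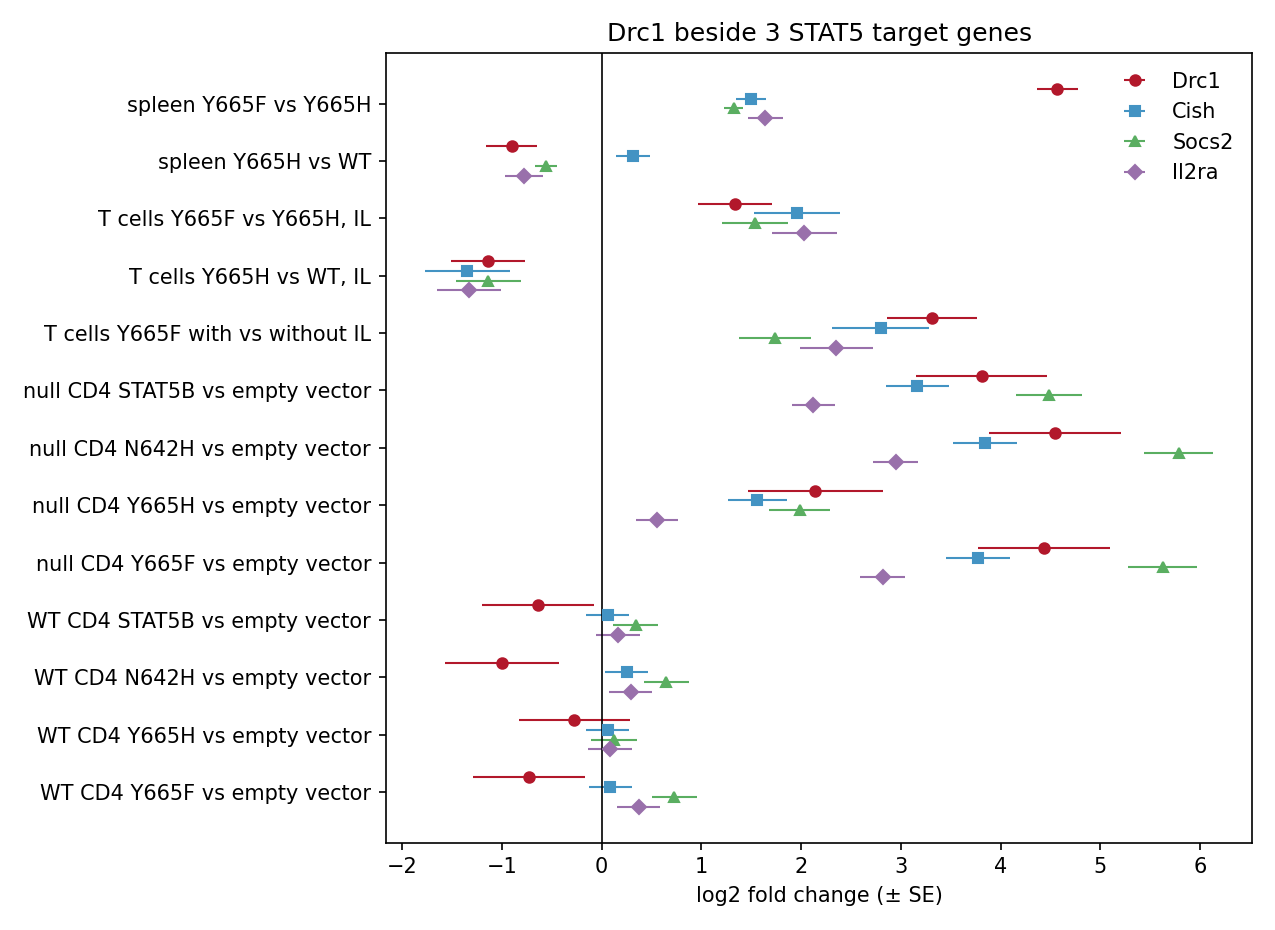
Log2 fold changes ± SE of Drc1 and of the STAT5 targets Cish, Socs2 and Il2ra in 13 comparisons of spleens, splenic T cells and CD4+ T cells. In null CD4+ cells Drc1 is at 3.81 (STAT5B), 4.54 (N642H), 4.43 (Y665F) and 2.14 (Y665H), and in WT CD4+ cells it lies between -1.001 and -0.27.

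Adam28 was nearly absent from CD4+ T cells. It had 0 to 19 reads per library and group means of 0.0254 to 0.269 CPM, below the floor of 3 reads in 16 of 30 libraries. Neither background nor any vector gave a call in edgeR. The lowest unadjusted p there was 0.0447, for N642H in WT cells (-2.73, adjusted p 0.454, lower in 3 of 3). No fold can be read from such counts.

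Over all 17 groups, Drc1 was highest on average in treated Y665F T cells and lowest in Y665H spleens. Treated Y665F T cells averaged 42.5 CPM, treated WT T cells 36.5, and WT CD4+ cells 26.9 with the empty vector, 22.1 with Y665H, 17.1 with STAT5B, 16.04 with Y665F and 13.2 with N642H, with treated Y665H T cells at 16.5. Null CD4+ cells followed, at 9.92 with N642H, 9.22 with Y665F and 5.93 with STAT5B, around Y665F spleens at 8.65 and above untreated Y665F T cells at 4.51. At the bottom were null cells with Y665H (1.90), WT spleens (0.691), null cells with the empty vector (0.431) and Y665H spleens (0.368). Without replicate 2 the mean was 14.4 in WT CD4+ cells with Y665H, 3.90 in null cells with STAT5B and 2.74 in untreated Y665F T cells. Neighbours in this order overlapped in 15 of 16 pairs, the exception being null cells with Y665H above WT spleens. Levels near each other are thus not told apart, while the top and the bottom are. Y665F spleens stood between null cells given Y665F and those given STAT5B, and the other spleens on either side of null cells with the empty vector.

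Adam28 had a different order. Y665H spleens were highest at 5.32 CPM, then untreated Y665F T cells at 4.16, WT spleens at 3.37, treated Y665F T cells at 2.46, Y665F spleens at 0.911, treated WT T cells at 0.857 and treated Y665H T cells at 0.644, with the 10 CD4 groups below. All 16 neighbouring pairs overlapped. Single libraries carried parts of this order, since untreated Y665F T cells averaged 2.12 CPM without replicate 1, below WT spleens, treated Y665F T cells 0.991 without replicate 3, and treated Y665H T cells 0.251 without replicate 2, among the CD4 group means of 0.0254 to 0.269. On average WT and Y665H spleens thus exceeded treated T cells of every genotype.

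**Figure D5:**
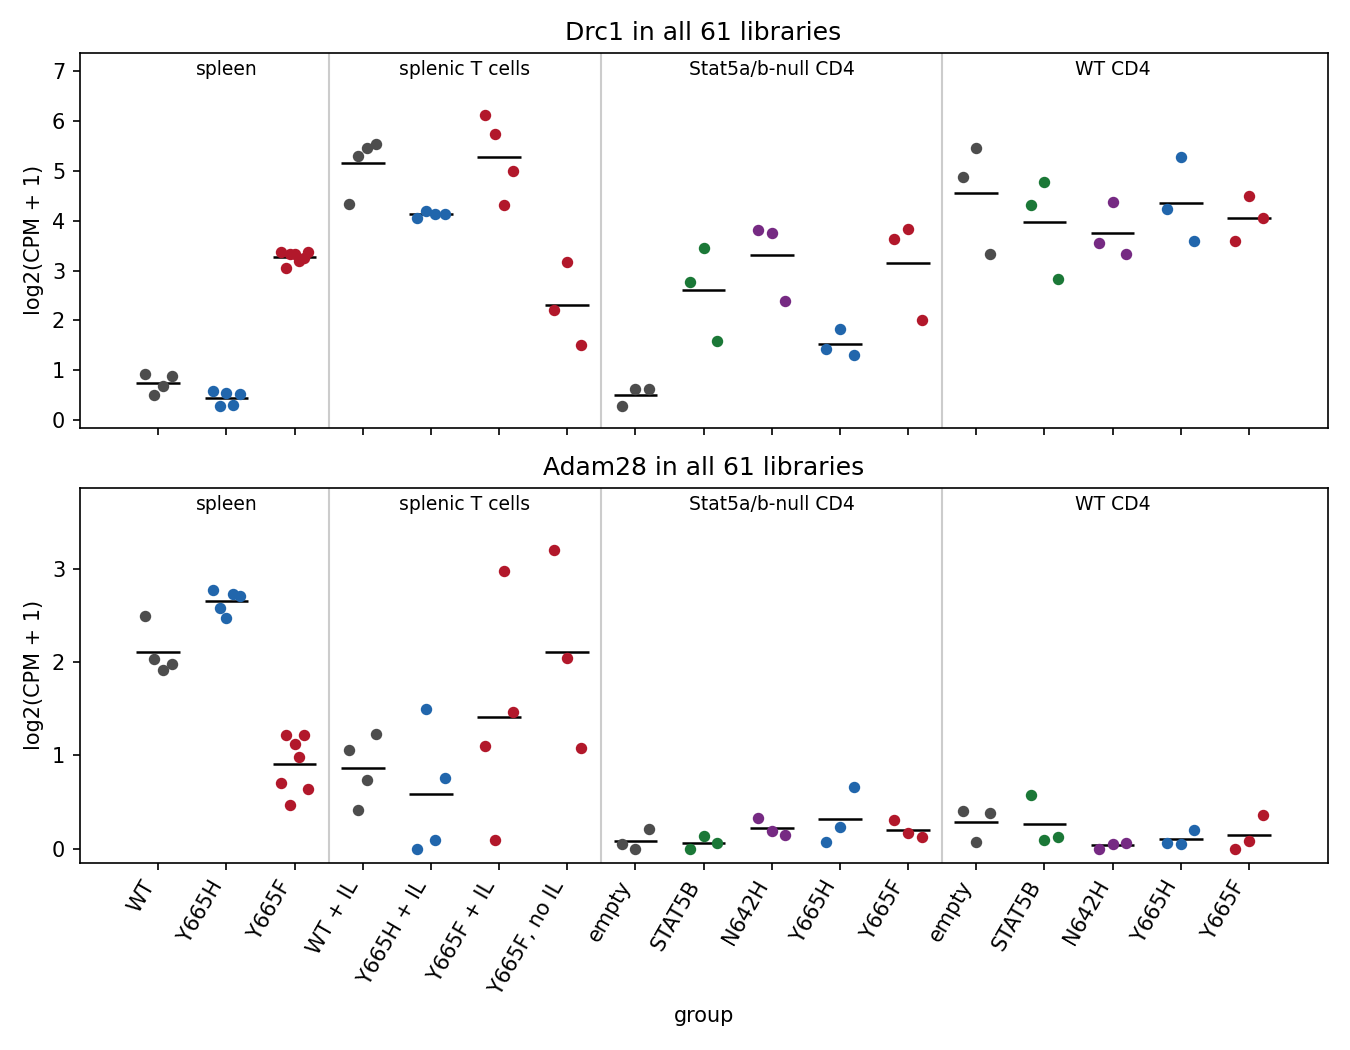
Levels of Drc1 and Adam28 as log2(CPM + 1) in all 61 libraries, arranged in 17 groups, with points for libraries and bars for group means. Drc1 is highest in Y665F T cells with cytokines, at a mean of 42.5 CPM, and Adam28 in Y665H spleens, at 5.32 CPM.

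Genes most like Drc1 over the 16 spleens, by Pearson r of log2(CPM + 1) among 14068 genes, were 5830411N06Rik (0.987) and Cd163l1 (0.983), which encode scavenger receptors, Neb (0.979, nebulin), Tnn (0.973, tenascin N) and Itgae (0.971, integrin alpha E). These points share 3 genotypes that stand apart, so r describes that split. In treated T cells, Y665F against Y665H gave 4.45 for 5830411N06Rik (adjusted p 3.56e-05), 2.36 for Cd163l1 (0.000571), 1.24 for Neb (0.00436) and 2.08 for Tnn (0.00397), all in Drc1's direction, but -2.59 for Itgae (1.57e-05). Without cytokine 5830411N06Rik averaged 14.5 CPM in Y665F T cells, and with it 21.9 CPM (log2 fold change 0.66, adjusted p 0.464). Over the 17 group means, with 13347 genes compared, the nearest to Drc1 were Il4ra (0.926), Slc17a9 (0.894), Glipr2 (0.887), Pim1 (0.880) and Ppp1r3f (0.872). Il4ra, the receptor chain for IL-4, averaged 104 CPM in null cells with the empty vector, 414 in WT cells and 1038 in treated Y665F T cells. No gene was among the first 5 for Drc1 on both scales.

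For Adam28, genes near it over the spleens were Myof (0.952), Tsga13 (0.940), Tmem57 (0.940) and Ppp1r9a (0.932). Over group means they were Col19a1 (0.974), Ntrk2 (0.958), Ppfia2 (0.946), Pde1c (0.945) and Zfhx4 (0.939). Col19a1, a collagen gene, averaged 4.81 CPM in untreated Y665F T cells, 2.45 in treated Y665F, 1.12 in treated WT and 1.12 in treated Y665H T cells, all groups that entered its r. In spleens it averaged 6.25 CPM in WT, 7.18 in Y665H and 2.43 in Y665F.

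Within the 7 Y665F spleens, the members and 13 cell-type lists were correlated, 27 relations in all, as a description with no test because these levels served the choice. Adam28 had its highest Pearson r with the NK-cell list (0.934, Spearman rho 0.929) and the cytotoxic list (0.901, rho 0.857). Without the 2 spleens farthest from the median these r were 0.877 and 0.853. Drc1 and Adam28 had r -0.652 and rho -0.536, with r -0.599 without 2 spleens. All points share a genotype, and 7 libraries give wide margins to any r.

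Of the genes next to the members, few were called anywhere. The nearest counted genes of Drc1 were Hadhb, Mir1960 and Adgrf3 on one side and Otof (367 bases away), 1700001C02Rik and Cib4 on the other. Over up to 21 comparisons with enough reads, Adgrf3 was called in 1 (2.19 in T cells, Y665F against Y665H, adjusted p 0.0287, where Drc1 was called in the same direction) and the others in 0. Around Adam28 lay Nefl, Adam7 (72286 bases away) and Adamdec1 (23932 bases away) on one side and Stc1, 1700092C10Rik and Nkx2-6 on the other. Stc1 was called in 1 (-2.84 in null against WT CD4+ cells, adjusted p 0.0278) and the others in 0. Adamdec1, a secreted relative of the same protease family, averaged 56.5 CPM in WT, 50.0 in Y665H and 44.4 in Y665F spleens, well above Adam28. Drc1 overlaps the annotated Gm43755 on its own strand, which the files do not count, and Adam28 overlaps no annotated gene.

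The Drc1 promoter is printed because Drc1 moved with STAT5 targets in the CD4+ cells, and 1 of 2 members had an entry in the RefSeq table (GRCm38.p6). The window chr5:30281143-30281442, plus strand, holds 300 bases with 54.3% GC. The STAT5 motif TTCNNNGAA, searched on both strands, had 0 matches in it, and 8.30% of 32851 promoters of that length held at least 1. The same ends set 4 bases apart had 0 as well, against 6.95%. That says only that these letters are not in this window.
Drc1 promoter: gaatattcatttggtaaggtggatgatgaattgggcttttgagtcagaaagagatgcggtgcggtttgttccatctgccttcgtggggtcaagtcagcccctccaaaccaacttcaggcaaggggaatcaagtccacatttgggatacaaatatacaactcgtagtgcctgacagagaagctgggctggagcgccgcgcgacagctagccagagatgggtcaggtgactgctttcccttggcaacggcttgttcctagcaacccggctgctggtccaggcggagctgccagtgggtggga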

How the data were processed

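The deposited files hold whole-number counts of reads per gene for 24421 genes, made by the authors and not normalized. The submitters' processing notes name Trimmomatic 0.36, FastQC 0.11.9, STAR, SAMtools 1.9, Picard 2.9.2, HTSeq 0.9.1 and mm10, and the strand setting of the counting is not given in the sources used here. A further 5 lines without a gene, 28.4 to 85.7% of read records per library, entered neither tests nor library sizes. Groups came from sample titles. Floxed Stat5a/b is the labelled genotype of all 30 CD4 libraries, even where the title says WT, and titles decided the background here, and the extraction note of all labels names mammary tissue, which no title does.

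Tests were run with edgeR 4.0.16 under R 4.3.3 (glmQLFit and glmQLFTest, TMM factors, limma 3.58.1) in fits of the 16 spleens, 15 splenic T-cell libraries, 15 null CD4, 15 WT CD4 and all 30 CD4 libraries, each with its groups and no covariate. Genes with at least 10 reads over a fit entered, and both members did in all 5. Adjusted p-values follow Benjamini and Hochberg, taking every gene tested in a fit together. An SE is the log2 fold change's size divided by the square root of F. Correlations used Python 3.11.15 with scipy 1.17.1 and a pseudocount of 1. P-values measure the spread between these libraries, since nothing in the labels says that all replicates were separate animals or cultures. No pair of replicates agreed within sampling noise. The scripts were tested on simulated data.

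Genes named are the members, Stat5a, Stat5b, Cish, Socs2 and Il2ra, up to 3 of the largest called changes per list and comparison at a mean of at least 1 CPM, the 3 nearest counted genes on each side, and genes among the 5 with the highest r. Adam19, Gas8, Ccdc65, Foxj1, Mcidas and Adam10 are given beyond that rule and were chosen after their values were seen. The members and the lists (dynein regulatory complex, motile cilia, ADAM family, STAT5 targets and 14 cell types) were chosen with earlier results of these data known. Drc3, Igj, Ly6g and Emr1 of the lists were not among the counted symbols.

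Libraries with the same replicate number deviated together in null CD4 cells, where 30 of 30 pairs had a correlation of deviations from the group means above 0.1 (lowest 0.216, median 0.465), so the number was also used as a block there. Alternatives were DESeq2 1.42.0, RLE size factors, other count filters, fits of only the groups compared, the replicate block, 1 factor of unwanted variation, other scalings of levels, and leaving out single libraries.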

Additional observations from a re-analysis of the deposited data

Results flagged for a closer look

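Each measure was looked at for a library far from the rest of its group, over 18 pairs of a measure and a group of 4 to 7 libraries, that is 36 ends, of which 2 lay beyond Dixon's critical value. Chance gives about 1 in 20 groups. Adam28 in WT spleen replicate 1, at 4.66 CPM, was far above the other 3 WT spleens, which had 2.78 to 3.09 CPM (gap over range 0.838), and the Y665F spleens were below all 4 alike. Y665H spleen replicate 2 had 43330536 reads on genes, the most of its group (0.715), with 0.220 CPM of Drc1, the lowest of the 5, and 4.99 CPM of Adam28, within the range of the others. Drc1's response to Y665F differed between null and WT CD4+ T cells by 5.21 on the log2 scale (edgeR adjusted p 0.00559), larger in null cells.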

How the results depend on the processing

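Outside the runs that left out a single library, Drc1 counted as unchanged in 147 alternative fits, was called in 2 more and lost a call in 1. Adam28 counted as unchanged in 140 and changed sign in 3. Unchanged means the same direction and the same side of the threshold. For Y665F spleens against Y665H or WT it means the same direction and a shift below the SD between libraries, with no threshold checked. These totals include the spleen comparisons, whose libraries served the choice, so nothing is read from agreement there. They also include the CD4 fits of Adam28, whose counts were too low to read a fold from. filterByExpr removed Adam28 in 7 comparisons, which then had no value. The block in null cells called Drc1 with Y665H (2.20, adjusted p 0.0347) and in Y665H against STAT5B (-1.52, 0.00798), and it changed no other call of either gene there. WT CD4 cells missed the pairing rule only narrowly, with 29 of 30 pairs above 0.1 and a lowest of 0.0991. Their median of 0.635 was above the 0.465 of null cells, so their fits without the block leave out a shared deviation. Other libraries were further from the rule, with 6 of 21 pairs above 0.1 in T cells, 4 of 13 in spleens and 94 of 135 over both CD4 backgrounds. With the replicate block, Drc1 in T cells, Y665F against Y665H, was 1.24 (adjusted p 0.0714), and Adam28 with STAT5B in WT CD4 cells turned from -0.03 to 0.0755, or to 0.23 with 1 RUVr factor. Leaving out treated Y665F T-cell replicates 3 and 4, chosen after seeing the data, turned Adam28 against WT to -0.43. The correlation of Adam28 with the B-cell list went from -0.00437 to 0.0363 at a pseudocount of 0.1. The cause was not tested.

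Without single libraries, Drc1 ranged from -1.05 to -0.74 in spleens of Y665H against WT, from -0.12 to 0.43 in T cells of Y665F against WT, from 1.05 to 1.57 in T cells of Y665F against Y665H, from 3.18 to 4.21 with STAT5B and from 1.96 to 2.68 for Y665F against Y665H in null cells, and in WT CD4 cells from -0.89 to 0.23 with Y665H and from -0.78 to 0.17 for Y665F against Y665H. Adam28 ranged from -1.51 to 1.42 with STAT5B and from -1.28 to 0.38 for Y665F against Y665H in null cells, and in WT CD4 cells from -1.46 to 0.36 with STAT5B and from -1.27 to 1.48 for Y665F against Y665H. These CD4 counts were too low to read a fold from, so the Adam28 ranges show only how unsteady the values are.

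Counts of all called genes changed by over 1.5 times in 39 of 150 alternatives. With the block, spleens went from 1025 to 653 (Y665F against Y665H) and 233 to 103 (against WT). T cells of Y665F against WT went from 342 to 155 (block), 1335 (RUVr), 955 (DESeq2), 194 (only those groups) and 5 (without replicates 3 and 4), Y665H against WT from 16 to 9, 44 and 90 (block, RUVr, DESeq2), Y665F against Y665H from 1066 to 1773 (RUVr) and 449 (without replicates 3 and 4), and with against without cytokine from 662 to 1128 (without them). Null cells went from 96 to 204 and 167 (STAT5B, block and DESeq2), 5 to 21, 13 and 3 (Y665H, block, DESeq2, only those groups), 2 to 16, 39 and 27 (Y665F against STAT5B, no filter, block, DESeq2) and 30 to 116, 46 and 67 (Y665H against STAT5B, block, RUVr, DESeq2). WT CD4 cells went, with block, RUVr and DESeq2, from 2 to 86, 18 and 14 (STAT5B; 0 with only those groups), 202 to 532, 435 and 347 (N642H), 145 to 501, 402 and 316 (Y665F) and 37 to 305, 249 and 179 (Y665F against Y665H). The interaction went from 92 to 164 (block) and 139 (DESeq2). Without single libraries the counts ran from 51 to 152 (STAT5B), 315 to 643 (Y665F), 3 to 8 (Y665H), 6 to 47 (Y665H against STAT5B) and 230 to 454 (Y665F against Y665H) in null cells, 658 to 1216 in null against WT cells, 2 to 5 (STAT5B) and 6 to 211 (Y665F against Y665H) in WT CD4 cells, 557 to 1201 in T cells (Y665F against Y665H), 398 to 909 with against without cytokine, 137 to 351 in spleens (Y665F against WT) and 45 to 141 for the interaction. Leaving single libraries out of group means and of list sums was also chosen after seeing the data. Scaled to library totals, Adam28 in Y665H spleens was 5.96 CPM, Drc1 in Y665F spleens 10.1 and Drc1 in Y665H T cells 17.6, or 18.02 with RLE. Few Adam28 reads, 0 to 77 per library, limit what can be read in CD4 and T cells. The CD4 libraries themselves held 18825994 to 49850689 reads on genes, against 24203179 to 43330536 in spleens.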

Other observations

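Iqcd, which encodes another subunit of the dynein regulatory complex, was higher in Y665H than in Y665F, in the spleen and in treated T cells, where Drc1 was lower. It averaged 1.11 CPM in WT, 3.14 in Y665H and 1.42 in Y665F spleens, and 1.05, 3.24 and 0.527 CPM in treated T cells of the same genotypes. In untreated Y665F T cells it was at 2.08 CPM, where Drc1 was lowest among the T-cell groups. Itgae, close to Drc1 over the spleens, was also highest in Y665H among treated T cells, at 57.7 CPM in Y665H, 16.3 in WT and 9.81 in Y665F with cytokines and 27.9 CPM in Y665F without.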
